A study of Caenorhabditis elegans with 2 samples.

Results

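Sites bound by GFP-tagged ROW-1 that lie beside the start of a single protein-coding gene, in the outer parts of the 5 autosomes of the nematode Caenorhabditis elegans, number 289 regions at 273 genes. They were chosen by a rule applied to the call list pooled over both replicates. A call had to have a signal of at least 50, a summit in the first or last 25% of an autosome, and that summit no more than 500 bp before or 200 bp after an annotated 5′ end of exactly 1 protein-coding gene. The pooled list held 30000 calls, of which 2780 reached a signal of 50, 2158 of these on autosomes and 842 of these on the arms. On the arms a further 123 calls lay in the promoter windows of several coding genes and 430 in none. The same rule in the central 50% of the autosomes gave 435 calls at 415 genes, which serve as the nearest comparison.

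The measurement was chromatin immunoprecipitation followed by sequencing (ChIP-seq), in which an antibody recovers a protein together with the DNA it is attached to. The strain was OP510, with the genotype unc-119(tm4063) III and the insertion wgIs510, a transgene of row-1 (F37D6.2) whose protein ends in a GFP-FLAG tag. Whole hermaphrodites in L4, the final larval stage, were taken 48 h after starved L1 larvae were synchronized. Chromatin was broken by sonication and recovered with an antibody against GFP, in 2 biological replicates that both carried the transgene. All tissues are mixed in whole animals, and the tagged protein comes from a transgene, so the promoters occupied in a given cell type cannot be told from these data. No control library was used here, so signal that any GFP-tagged protein might give at an open promoter is not separated from ROW-1. Only peak lists were used. Read depth is therefore unknown, and every interval below is an exact Clopper-Pearson 95% interval that covers counting error over regions or genes only.

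The autosomes of this nematode have a central part of low recombination, which holds many genes used in every cell, and arms of high recombination, which hold much repeat-rich heterochromatin and large families of fast-evolving genes such as chemosensory receptors. A promoter is the stretch at the 5′ end of a gene where transcription factors and RNA polymerase assemble. In nematodes many annotated 5′ ends are sites where a spliced leader is joined to the RNA, so transcription can start some way upstream of them.

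None of the short sequences searched was present at all of the strongest summits. The 6 strongest regions whose chromosome allows the sequence to be shown are printed with 50 bp on each side of the summit, read on the strand of the gene from the RefSeq sequence of WBcel235 (ce11). Capitals mark matches on either strand to CTGCGTC, to GAGAGA, to GCGCCAGC, to ACGCGC or to GCGCAC, the short sequences whose shares are given further on. The regions are tasp-1 (chrIII:10759200-10759300, plus strand), cox-5A (chrIII:12905151-12905251, plus strand), Y22D7AL.10 (chrIII:1619076-1619176, minus strand), eelo-2 (chrIV:17249857-17249957, plus strand), hsp-1 (chrIV:17278523-17278623, plus strand) and ntl-11 (chrIV:15471580-15471680, minus strand). None overlaps an annotated exon.
tasp-1: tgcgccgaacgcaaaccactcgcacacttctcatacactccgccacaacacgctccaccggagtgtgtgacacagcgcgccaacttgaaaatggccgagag
cox-5A: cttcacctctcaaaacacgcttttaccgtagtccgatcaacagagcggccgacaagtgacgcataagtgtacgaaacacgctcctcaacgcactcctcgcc
Y22D7AL.10: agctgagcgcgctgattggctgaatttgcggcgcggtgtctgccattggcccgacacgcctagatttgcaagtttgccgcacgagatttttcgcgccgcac
eelo-2: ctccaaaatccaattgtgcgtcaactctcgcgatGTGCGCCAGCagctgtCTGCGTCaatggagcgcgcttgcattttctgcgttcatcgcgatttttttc
hsp-1: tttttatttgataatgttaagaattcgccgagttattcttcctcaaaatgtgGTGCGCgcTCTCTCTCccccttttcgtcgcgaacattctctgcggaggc
ntl-11: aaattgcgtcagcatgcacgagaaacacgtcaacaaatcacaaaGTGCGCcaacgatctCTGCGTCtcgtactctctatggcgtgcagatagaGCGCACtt

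Of these 6, eelo-2 held CTGCGTC and GCGCCAGC, the latter overlapping GCGCAC on the other strand, ntl-11 held CTGCGTC and 2 copies of GCGCAC, and hsp-1 held GCGCAC beside a run of GAGAGA. The tasp-1, cox-5A and Y22D7AL.10 windows held none of the 5. GC content at the summit was 58.4% for tasp-1, 51.5% for eelo-2, 49.5% for ntl-11 and 45.5% for hsp-1.

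The sequence CTGCGTC, searched on both strands, is shown with 11 bases on each side at 6 regions, chosen because it was among the leading short sequences at the summits. They are oriented so that the capitals read CTGCGTC. The sites lie at eelo-2 (chrIV:17249896-17249924, plus strand), ntl-11 (chrIV:15471604-15471632, minus strand), Y39B6A.43 (chrV:18967842-18967870, plus strand), Y73F8A.27 (chrIV:15472574-15472602, minus strand), nurf-1 (chrII:14405361-14405389, minus strand) and hlh-30 (chrIV:4035057-4035085, plus strand).
eelo-2: ccagcagctgtCTGCGTCaatggagcgcg
ntl-11: gccaacgatctCTGCGTCtcgtactctct
Y39B6A.43: cgtcactttctCTGCGTCtccacgggtta
Y73F8A.27: gccaacgatttCTGCGTCtcgtactctct
nurf-1: ttctacgccgtCTGCGTCtctcgatttac
hlh-30: ctctgtacgtcCTGCGTCtccgcaagccg

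The bases TC follow CTGCGTC at each of these sites except that of eelo-2. The ntl-11 and Y73F8A.27 sites agree at 28 of 29 bases, and their summits lie 974 bp apart on chromosome IV, so the 2 windows shown are near-identical. The ntl-11 region, beside a gene for a subunit of the CCR4-NOT complex that shortens the poly(A) tails of mRNA, had a signal of 380, and the Y73F8A.27 region had 195.

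The sequence GCGCCAGC is shown in the same way with 10 bases before it and 20 after it, because its share rose with the strength of the regions. The sites lie at eelo-2 (chrIV:17249883-17249920, plus strand), pcn-1 (chrIV:4049675-4049712, plus strand), ddp-1 (chrIII:1859720-1859757, minus strand), hrpu-2 (chrIV:2177724-2177761, minus strand), Y94H6A.3 (chrIV:2676471-2676508, plus strand) and pde-12 (chrIII:10845022-10845059, plus strand).
eelo-2: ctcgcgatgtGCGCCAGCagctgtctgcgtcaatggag
pcn-1: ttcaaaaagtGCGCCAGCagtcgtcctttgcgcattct
ddp-1: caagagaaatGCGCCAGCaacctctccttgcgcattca
hrpu-2: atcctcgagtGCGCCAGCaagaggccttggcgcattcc
Y94H6A.3: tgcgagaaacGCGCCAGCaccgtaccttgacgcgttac
pde-12: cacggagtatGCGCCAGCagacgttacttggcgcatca

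The sites at hrpu-2, Y94H6A.3 and pde-12 carry TTGNCGC downstream of GCGCCAGC, where N is any base, and those at pcn-1 and ddp-1 carry the shorter TTGCGC. The first of these partly mirrors the start of GCGCCAGC read on the opposite strand. With a spacing of 5 to 15 bases, TTGNCGC followed GCGCCAGC in 10 of the 23 regions that held the latter within 100 bp of the summit (43.5%). With the same window this was so in 6 of 26 such regions in the centre of the autosomes (23.1%). Of all 856 copies on the 5 autosomes, 38 were followed by it (4.44%). The second pattern was chosen after these sites had been seen, so these shares are a description.

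Signal in the pooled list chose the regions, so the levels that follow describe them and are not tested. The signal is the value that the submitters' caller gave each call, on a scale the sources do not state. It ran from 50.1 to 882, with a median of 84.8 and quartiles of 61.7 and 128. In all, 115 regions reached 100 and 31 reached 200. Medians were close in the other sets chosen at 50 or more, with 81.2 in the centre, 91.3 at arm promoters shared by several genes and 76.6 at arm calls outside coding promoters. At the lower edge, the 4 regions just inside were F52C12.2 and crh-1 (both 50.3) and Y44E3A.1 and lsm-3 (both 50.1). The 4 calls just outside were at cmd-1 and ippk-1 (both 49.5) and K01A2.10 and R148.3 (both 49.4), and the ippk-1 call overlapped a peak of the optimal list, the submitters' set of peaks that passed their reproducibility threshold.

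The strongest region lay 57 bp upstream of tasp-1, which encodes a threonine aspartase, with a pooled signal of 882, 542 in replicate 1 and 342 in replicate 2. Next came cox-5A, a subunit gene of cytochrome c oxidase in the respiratory chain, with 513 in the pooled list, 294 in replicate 1 and 218 in replicate 2. Y22D7AL.10 followed with 456 pooled, 247 in replicate 1 and 209 in replicate 2. Replicate 1 gave the higher value at each of these regions, and the order of the genes was the same in both replicates. The region at eelo-2 had 429 pooled, with 263 and 165 in replicates 1 and 2. At ints-4, a gene of the Integrator complex that cuts the ends of small nuclear RNAs, the summit lay 34 bp downstream of the 5′ end, with 425 pooled and 265 and 161 in the replicates. The replicates gave ints-4 and eelo-2 nearly the same place, and both regions were far below tasp-1.

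The hsp-1 region, at a gene of the Hsp70 chaperone family, had 383 pooled, 257 in replicate 1 and 127 in replicate 2, with its summit 386 bp upstream. The pcn-1 region, at the gene of the replication clamp PCNA, had 342 pooled, 219 in replicate 1 and 127 in replicate 2. At both, the ratio of replicate 1 to replicate 2 was above the median of all the regions, 1.44. The ntl-11 region had 380 pooled, 226 in replicate 1 and 146 in replicate 2. Among the rest of the 20 strongest were Y39E4B.6 (374), Y39B6A.43 (371), Y18D10A.4 (295), mog-4 (295), which encodes an RNA helicase of splicing and of germline sex determination, and hat-1 (288), which encodes a histone acetyltransferase. Then came ddp-1 (281), a mitochondrial import gene, dnj-13 (275), an Hsp40 co-chaperone gene, apb-1 (266), a gene of clathrin adaptors, vig-1 (264), smu-1 (258), a splicing gene, and the ribosomal protein genes rps-28 (250.4) and rps-24 (246). These last values are pooled signals, and all of these 20 regions overlapped the optimal list.

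The replicates ranked the regions alike and differed in level. Of the 289 regions, 288 overlapped a call in both replicates. The exception was a region at rom-4, with 52.4 in the pooled list and 9.37 in replicate 2 and no call in replicate 1. The median signal was 52.5 in replicate 1 and 34.7 in replicate 2, and replicate 1 was higher in 255 of 288 regions (88.5%). The ratio of replicate 1 to replicate 2 had a median of 1.44 and ran from 0.418 at pqn-27 (21.1 and 50.5) to 4.86 at F22G12.5 (40.5 and 8.34). A scale common to both lists is not known, so the shift as a whole cannot be read as a difference in binding. Across regions, the log2 signals of the replicates had a Pearson r of 0.833 and a Spearman rho of 0.776 (n = 288), beside 0.741 and 0.639 over 431 regions of the centre. All points of one list share a library, and the regions were chosen on the sum of these libraries.

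**Figure D1:**
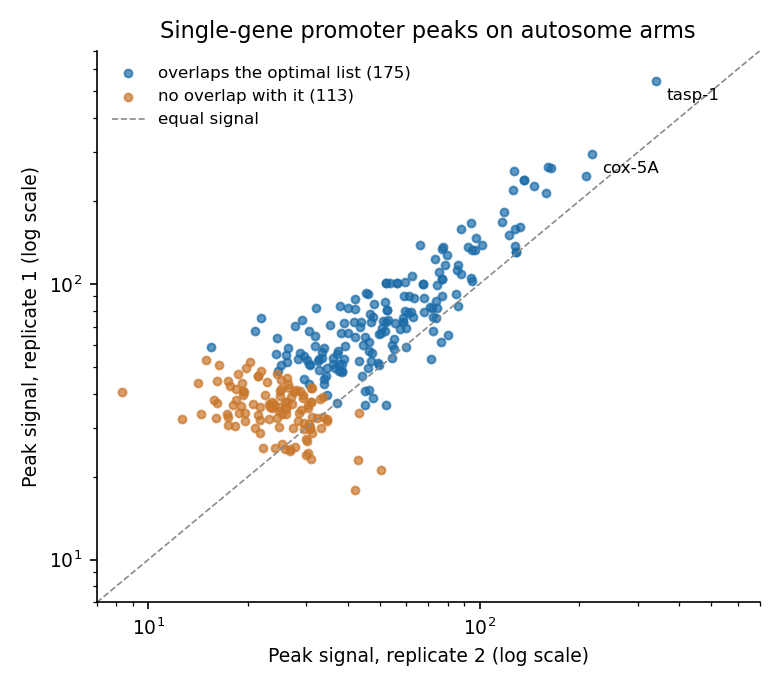
Signal of each of 288 regions in replicate 1 (vertical) and replicate 2 (horizontal), both on log scales, coloured by overlap with the optimal list; the dashed line marks equal signal. Most points lie above the line (255 of 288), tasp-1 is the highest in both replicates, and the regions with no overlap fill the low end.

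A peak of the optimal list was overlapped, by at least 1 bp, by 175 of the 289 regions (60.6%, interval 54.7 to 66.2) and by 58.0% of all autosomal calls of 50 or more. Among the 2780 strongest calls of both replicates were 214 (74.0%, interval 68.6 to 79.0), where the share over all autosomal calls of 50 or more was 71.0%. Both measures were made from the libraries that chose the regions, so nothing is read from these shares. The lowest signal in the optimal list was 74.8. All 172 regions at or above it overlapped a peak of that list, as did 3 of the 117 below it. Some calls touched each other: 20 regions overlapped another region of the set. In 219 regions (75.8%) the summit stood at the exact middle of a call of 430 bp, so its position is less sharp than a single base.

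Of the 7645 protein-coding genes on the arms, 273 had a single-gene promoter peak (3.57%, interval 3.17 to 4.01). In the centre the count was 415 of 9597 (4.32%, interval 3.93 to 4.75). With peaks at shared promoters included, the shares were 6.75% and 7.92%. Calls of every kind were thinner on the arms, with 20.4 per Mb against 31.9 per Mb in the centre, and single-gene promoter calls had 7.0 and 10.5 per Mb. Coding genes were thinner there too, with 185 and 233 per Mb. Single-gene promoter calls made up nearly the same share of the calls in each, 34.3% on the arms and 33.1% in the centre.

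The 10 arms were unlike each other. The left arm of chromosome I had the highest share, with a peak at 39 of 521 coding genes (7.49%), the strongest at wwp-1, a ubiquitin ligase gene with a signal of 239.8. The right arm of III had 31 of 546 (5.68%) with tasp-1 as its strongest, the right arm of II 38 of 681 (5.58%) with mog-4, and the left arm of IV 38 of 718 (5.29%) with pcn-1. Intermediate shares were found on the left arm of III (21 of 531, 3.95%, led by Y22D7AL.10), the right arm of I (26 of 688, 3.78%, led by ints-4) and the right arm of IV (20 of 614, 3.26%, led by eelo-2). The lowest shares were on the left arm of II (19 of 976, 1.95%, led by vig-1) and on both arms of V. The left arm of V had 21 of 1208 (1.74%) and the right arm 20 of 1162 (1.72%), with Y45G5AM.9 at 139 and Y39B6A.43 at 371 as the strongest.

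The difference between arms and centre was therefore not of 1 sign across chromosomes. On V both arms lay below the centre, which had 3.47%, and their intervals did not reach that value. On the other 4 autosomes 1 arm lay above the centre and 1 below it. The centres had 6.05% on I, 4.46% on II, 4.93% on III and 3.39% on IV. The intervals of the left arm of I, the right arm of II, both arms of III and the right arm of IV held the value of their centre. Those of the right arm of I and the left arm of II lay below that value, and that of the left arm of IV lay above it. The centres have counting error too. The interval of the centre of I (4.96 to 7.30) overlapped that of its right arm (2.48 to 5.49). That of the centre of IV (2.63 to 4.29) overlapped that of its left arm (3.77 to 7.19). The intervals of the left arm and the centre of II did not overlap. Within the arms the regions leaned outward: 161 of 289 (55.7%, interval 49.8 to 61.5) lay in the outer 50% of an arm, beside 46% of the arm coding genes. The median distance to the chromosome end was 1704 kb and the shortest 8.98 kb.

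**Figure D2:**
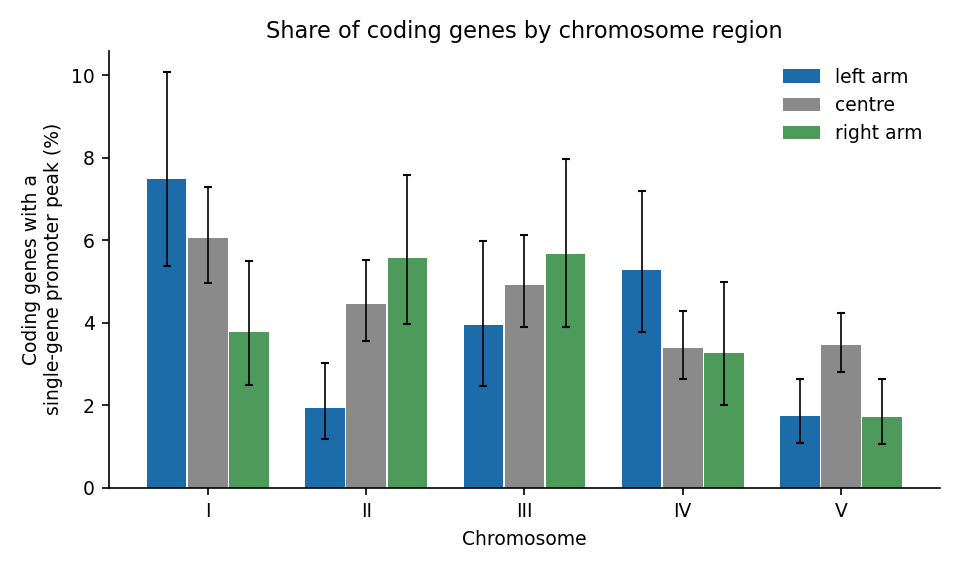
Percent of coding genes with a single-gene promoter peak (vertical) on the left arm, centre and right arm of each autosome (horizontal); bars start at 0 and error bars are exact 95% intervals for counting error. Both arms of V and the left arm of II stand lowest, near 1.7 to 1.95%, and the left arm of I stands highest at 7.49%.

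The genes were grouped in 32 lists by symbol, of which 22 held a gene with a peak. A list holds only genes whose symbol met its pattern, so its share is not that of a whole functional class. The regions at mog-4, smu-1 and hat-1, for example, belonged to no list. In all, 53 of the 289 regions belonged to a listed gene. How many of all arm coding genes are listed was not counted, so nothing is read from this number. The share of all arm coding genes with a single-gene promoter peak, 3.57%, is the value beside which each list is read.

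Nuclear pore and transport genes had the highest share of any list with at least 10 arm genes, with 6 of 14 (42.9%, interval 17.7 to 71.1), and 3 more had a peak shared with another gene. The importin genes imb-3 and imb-2, whose proteins carry cargo through the pore, had pooled signals of 133 and 91.1. The nucleoporin genes npp-8, npp-18, npp-13 and npp-20 had 128, 84.2, 82.0 and 55.4. In replicate 1 the strongest 2 of the 6 were npp-8 (74.2) and imb-3 (67.8), and in replicate 2 they were npp-8 (53) and imb-3 (51.7). In the centre 2 of 26 genes of this list had a single-gene peak (7.69%). Both shares rest on few genes, and the centre share has counting error of its own. Whether arms and centre differ for this list was not tested.

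Among genes of the cytosolic ribosome, 5 of 24 on the arms had a single-gene peak (20.8%, interval 7.13 to 42.2) and 9 more a shared one. These were rps-28 (158 in replicate 1 and 87.6 in replicate 2), rps-24 (147 and 97.4), rpl-7 (71.1 and 35.4), rpl-29 (36.5 and 52.3) and ubl-1 (26.9 and 30.1). The first 3 were higher in replicate 1 and the other 2 in replicate 2. Their summits lay from 175 to 432 bp upstream of the 5′ end, farther than the median of all the regions in each case. Of the 55 genes of this list in the centre, 18 had a single-gene peak (32.7%). The mitochondrial ribosome had 2 of 23 (8.70%), mrpl-28 (165) and mrpl-55 (123), with 4 more at shared promoters.

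Genes of DNA replication and the cell cycle had 4 of 24 (16.7%), with 5 more at shared promoters. Behind pcn-1 came cdk-7 (115), whose kinase acts on RNA polymerase and on cell cycle kinases, and the genes mcm-4 (100.4) and mcm-2 (69.0) of the replicative helicase. The mcm-2 region was the only one of the 4 that did not overlap the optimal list. Splicing genes also had 4 of 24 (16.7%), among them hrpu-2 (161), hrpa-1 (131) and the Sm protein gene snr-6 (80.7). Chaperone genes had 3 of 19 (15.8%), with hsp-1, dnj-13 and the prefoldin gene pfd-3 (76.9), and 8 more at shared promoters. The respiratory chain had 2 of 14 (14.3%), cox-5A and cox-4 (83.8).

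Autophagy, endosomal sorting and vacuolar ATPase genes had 5 of 20 (25%), led by the ESCRT genes vps-4 (204) and vps-25 (167) and by hlh-30, whose product is the TFEB orthologue that regulates autophagy genes, at 148. Signalling kinases had 3 of 10 (30%): kin-1, the catalytic subunit of protein kinase A (124), the calmodulin-dependent kinase gene cmk-1 (118) and the cGMP-dependent kinase gene egl-4 (81.7). The bHLH list had 2 of 9, hlh-30 and hif-1 (103.3), the hypoxia-inducible factor. Single or paired entries came from RNA polymerase (rpb-11, 202), translation (eif-3.B, 185), heterochronic timing (lin-66, 193) and the DRM complex (efl-1, an E2F factor, 122). Others came from histone modification (mes-2, a Polycomb gene, 62.9), histones (his-72, 71.6) and small RNA pathways (rrf-2, 67.3, and eri-5, 59.4). With so few genes per list, the intervals of most of them are wide. The background of 3.57% lay inside those of the mitochondrial ribosome (1.07 to 28.0), the respiratory chain (1.78 to 42.8), chaperones (3.38 to 39.6) and bHLH proteins (2.81 to 60.0). It also lay inside those of all the lists with single or paired entries just named. The shares of these lists cannot be told from the background.

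The families that fill the arms were nearly empty. Chemosensory receptors, the largest, had 1 of 792 genes with a peak (0.126%, interval 0.00320 to 0.701), F-box proteins 1 of 267 (0.375%, upper bound 2.07), C-type lectins 1 of 156 (0.641%, upper bound 3.52) and nuclear hormone receptors 1 of 151 (0.662%, upper bound 3.63). The upper bounds of the first 3 lie below 3.57%. Aminoacyl-tRNA synthetases (11 genes) and proteasome subunits (6) had 0, with 1 gene of each at a shared promoter. A count of 0 was also found for MATH and BATH proteins (63), collagens (48), neuropeptides (47), cytochrome P450 enzymes (35) and ligand-gated ion channels (27). Potassium channels (18), homeobox proteins (21) and UDP-glucuronosyltransferases (21) had 0 as well. Collagens and F-box proteins also had 1 gene each with a peak only at a shared promoter. Several lists with 0, such as collagens (98) and homeobox proteins (42), hold more genes in the centre than on the arms. For the 63 MATH and BATH genes, 0 still allows a share of up to 5.69%, so for these shorter lists a share near the background cannot be told from none. The first 4 families had few peaks in the centre too. There 0 of 492 chemosensory receptor, 0 of 38 F-box, 0 of 81 C-type lectin and 1 of 95 nuclear hormone receptor genes had a single-gene peak. No interval was computed for the lists in the centre, and all but the receptor list are short there. Whether these shares lie below the 4.32% of all centre coding genes was not tested.

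Of the 4 arm genes with a peak in the first 4 families, srh-269 and clec-126 had a noncoding gene in reach of the summit. The receptor gene srh-269 had 2 overlapping regions of 61.8 and 53, both beside a tRNA gene and both matched to a single call in each replicate (37.2 and 30.9). The lectin gene clec-126 (137, with 86 and 52 in the replicates) had 2 tRNA genes in reach. The F-box gene fbxa-24 (63.4) and the nuclear hormone receptor gene nhr-158 (79.4) had none. Glutathione S-transferases had 1 of 29 genes with a peak (3.45%), near the background. That gene, gst-27 (162, with 81.7 and 71.7), had the snoRNA gene Y53F4B.48 in reach.

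**Figure D3:**
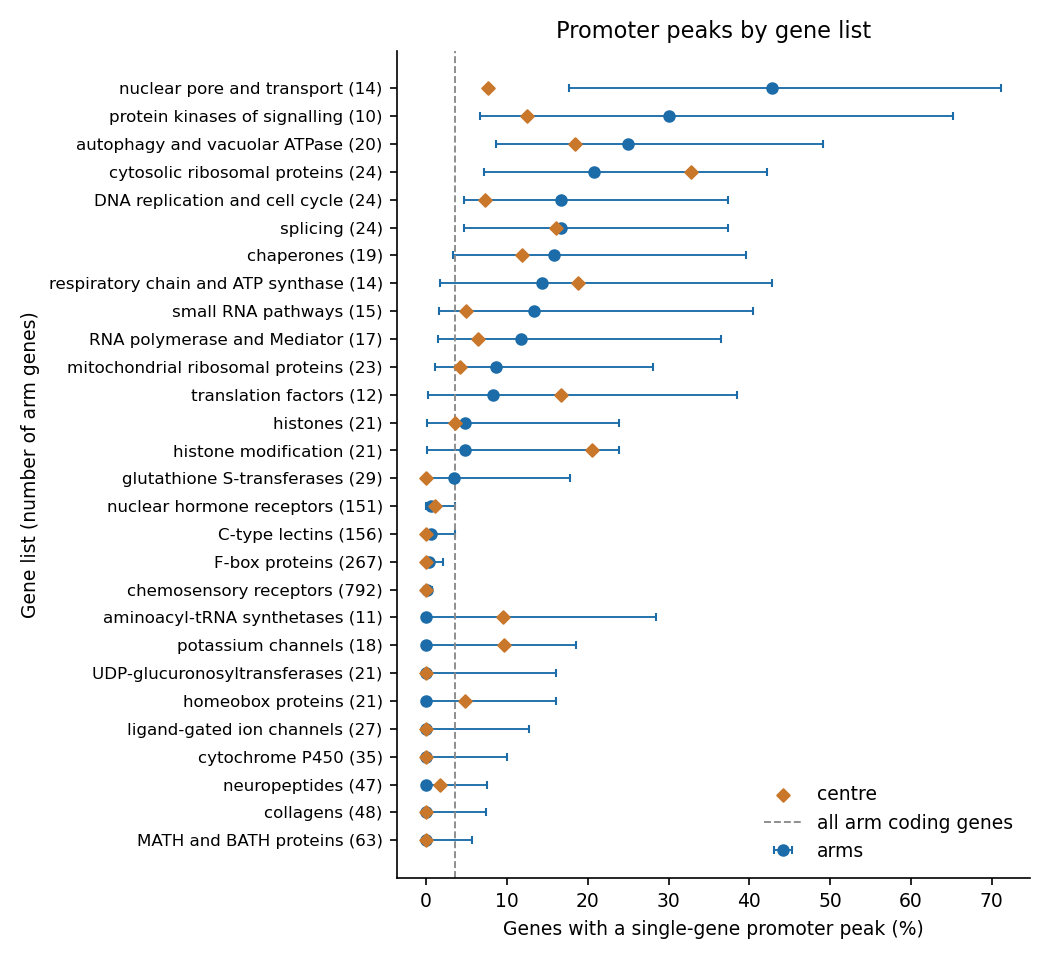
Percent of genes with a single-gene promoter peak (horizontal) for each gene list with at least 10 arm genes (vertical, number of arm genes in parentheses); circles are arms with exact 95% intervals, diamonds the same lists in the centre, and the dashed line is 3.57%, all arm coding genes. Nuclear pore and transport genes stand at the top with 42.9%, and the receptor, F-box and lectin families lie left of the line.

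Of all the regions, 40 (13.8%, interval 10.1 to 18.4) also had the 5′ end of a noncoding gene or pseudogene in reach, beside 81 of 435 in the centre (18.6%). These ends belonged to genes annotated as ncRNA in 24 regions, the strongest at hsp-1, and to tRNA genes in 11, snoRNA genes in 8, piRNA genes in 4, miRNA genes in 2 and a pseudogene in 1, and a region can count under several. The 8 snoRNA regions had a median signal of 149 and the 11 tRNA regions a median of 69.5, beside 83.4 for the 249 regions with no such end. The strongest snoRNA regions were at F37F2.2 (226), cmtr-1 (211) and din-1 (172). Arm calls outside coding promoters more often had a tRNA gene in reach, 45 of 430 (10.5%, interval 7.74 to 13.8) against 3.81% (interval 1.92 to 6.71). For these 40 regions the coding gene is the one that the rule assigns, and which of the neighbours the signal belongs to was not tested.

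Summits lay upstream of the 5′ end in 259 of 289 regions (89.6%, interval 85.5 to 92.9). The rule reaches 500 bp upstream and only 200 bp downstream, so part of this share is set by its limits. The median position was −173 bp, with quartiles of −269 and −87 bp and a range from −494 to 196 bp, all within limits the rule sets. From 100 to 400 bp upstream lay 187 summits (64.7%), and 71 (24.6%) lay within 100 bp of the 5′ end on either side. In the centre the median was −209 bp, with 20.7% within 100 bp and 91.7% upstream. From the weakest to the strongest 25% of the regions the medians were −151.5, −180.5, −164 and −205 bp, without a steady order.

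**Figure D4:**
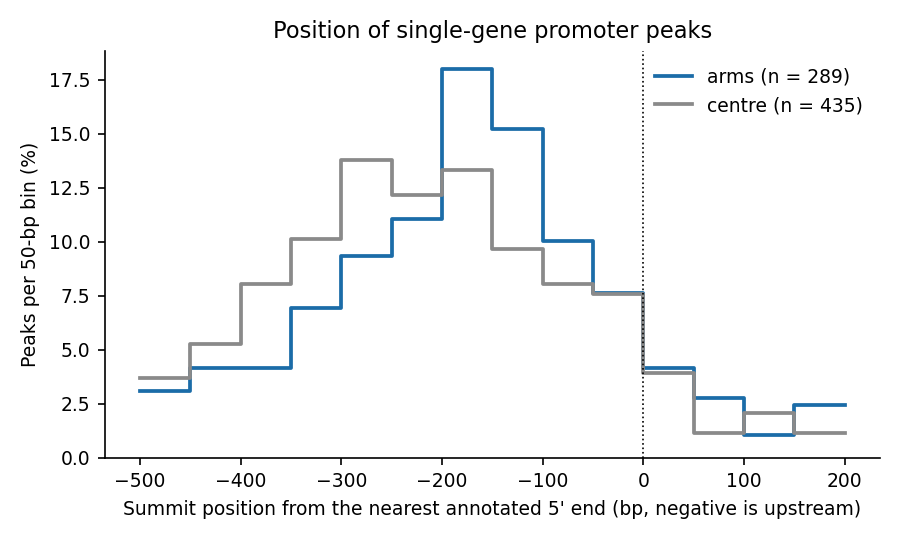
Percent of regions in each 50-bp bin (vertical) by the position of the summit from the nearest annotated 5′ end in bp (horizontal, negative upstream), for 289 arm and 435 centre regions. The arm curve is highest from 200 to 150 bp upstream, at 18%, and the centre curve from 300 to 250 bp upstream, at 13.8%; both are at 7.6% in the last 50 bp before the 5′ end.

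Most summits, 204 (70.6%), lay between genes. Introns held 47, which is possible because a gene can have inner 5′ ends or lie inside another, and untranslated exons held 22, coding exons 8 and noncoding exons 8. In 245 regions (84.8%) the 5′ end was the outermost of its gene. The genes themselves were longer than most on the arms, with a median length of 3550 bp against 2054 bp over all arm coding genes. The rule uses every annotated 5′ end, so a gene with several has more chances to be chosen. How far this bears on the lengths was not tested. The upstream neighbour was divergent for 119 of 273 genes (43.6%) and tandem for 137 (50.2%), beside 41.6% and 51.5% of all arm coding genes. The gap to that neighbour had a median of 920 bp, beside 949 bp.

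Several genes carried more than 1 region. There were 14, of which gsa-1 and kin-1 had 3 each. At Y39E4B.6 the summed signal was 488, at gsa-1, which encodes the G protein alpha subunit that activates adenylyl cyclase, 384, at W01D2.3 326 and at smu-1 318. The nurf-1 gene, of a nucleosome remodelling complex, and din-1 had 295 and 294. At nurf-1 both regions had calls of their own in the replicates, 107 and 62.7 for the first and 84.8 and 48.0 for the second, and they lay in introns at separate inner 5′ ends. At Y39E4B.6, smu-1 and din-1 both regions matched 1 call per replicate (238 and 136 at Y39E4B.6, 130 and 129 at smu-1, 104 and 77.2 at din-1), so the replicate lists hold them as a single site. The same held for 2 of the 3 regions of gsa-1 and of kin-1, and in all for 10 of the 14 genes, so their summed signals do not stand for separate sites.

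GC content rose at the summits. Within 50 bp it was 47.9% ± 8.55 (SD over 289 regions), against 37% ± 6.28 in flanks 250 to 350 bp away on both sides, a mean difference of 10.9 percentage points. Regions of the centre had 46.3% and 35.3%. GC content was higher in stronger regions, at 44.8%, 46.6%, 47.9% and 52.4% from the weakest to the strongest 25%. Across the regions, log2 pooled signal and GC content had a Pearson r of 0.281 and a Spearman rho of 0.294 (n = 289). Repeat-masked bases filled more than 50% of the summit window in 33 regions (11.4%), beside 8.74% in the centre and 29.3% at shared promoters of the arms.

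**Figure D5:**
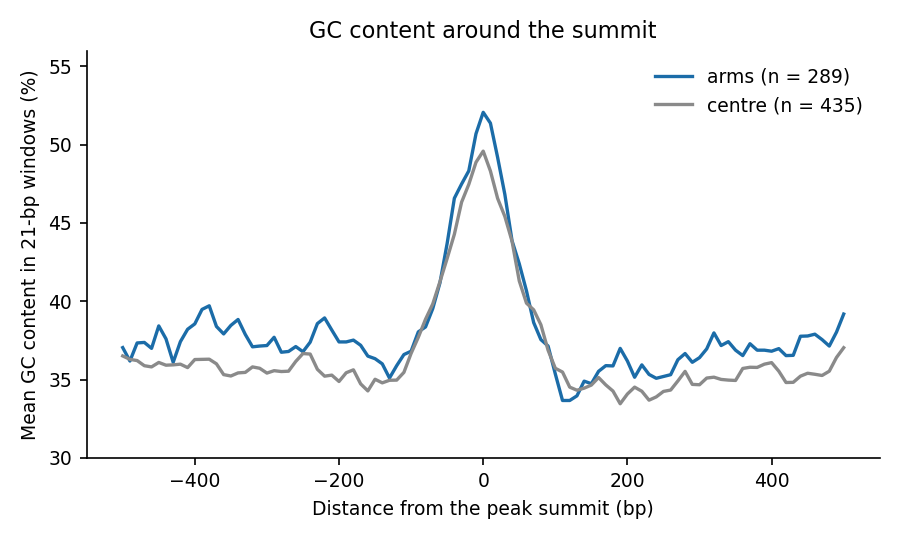
Mean GC content in 21-bp windows (vertical) by distance from the summit in bp (horizontal) for 289 arm and 435 centre regions; the vertical axis starts at 30%. GC content peaks at the summit of the arm regions at 52.1% and falls to the level of the flanks within about 100 bp on either side.

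CTGCGTC and GAGAGA were the leading short sequences of those that earlier results had named. CTGCGTC lay within 50 bp of the summit in 45 of 289 regions (15.6%, interval 11.6 to 20.3). It was found in 0.692% of flanking windows of the same length, in 1.96% of windows set 173 bp upstream of all 7645 arm coding genes, and in 3.24% of 1699 single-gene arm promoter calls with a signal below 50. Regions of the centre had 10.8% (interval 8.05 to 14.1), shared arm promoters 6.50% and arm calls outside coding promoters 15.1%. The interval of the regions overlaps those of the centre and of the calls outside promoters. Within 150 bp of the summit the shares were 21.1% for the regions, 20% in the centre and 29.1% for arm calls outside promoters. The share did not follow strength, with 16.7%, 15.3%, 15.3% and 15.1% from the weakest to the strongest 25%.

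GAGAGA was in 78 regions (27%, interval 22.0 to 32.5), beside 6.75% of flanks, 6.66% of windows upstream of all arm coding genes and 20.2% of centre regions. Arm calls outside coding promoters had more, with 40.9% (interval 36.2 to 45.7), and shared promoters fewer, with 14.6% (interval 8.91 to 22.1). Within 150 bp, GAGAGA was in 43.9% of the regions, 40.9% of centre regions and 62.8% of arm calls outside promoters. CTGCGTC and GAGAGA came together: 29 of the 45 regions with CTGCGTC also had GAGAGA (64.4%), against 49 of the other 244 (20.1%). The search letters can touch where CTGCGTC runs on into TCTC, the opposite strand of a GAGA run. Of the CTGCGTC copies nearest the summit, 51.1% lay within 20 bp of it, and 30 of 45 (66.7%) read in the direction of the gene.

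Copies of CTGCGTC were far more numerous than the regions. The arms held 4542 copies, of which 48 lay within 50 bp of a summit of the set (1.06%), and 254 (5.59%) of the copies lay in a call of 50 or more of any kind. Of the longer CTGCGTCTC there were 2803 copies, 37 of them at a summit of the set (1.32%). Presence of these letters alone therefore did not mark the regions.

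GCGCCAGC was found at coding promoters, and more often at the stronger regions. It was added to the search after short sequences had been ranked at the same summits, so its share is a description of the regions that chose it. It was in 23 regions (7.96%, interval 5.11 to 11.7), in 22 of 435 in the centre (5.06%) and in 12 of 123 shared arm promoters (9.76%), but in 0 of 430 arm calls outside coding promoters, which allows a share of up to 0.854%. Windows upstream of all arm coding genes had 0.392%, weak promoter calls 0.235% and flanks 0.173%. From the weakest to the strongest 25% of the regions the share was 2.78%, 4.17%, 9.72% and 15.1%. These are 2, 3 and 7 of 72 regions and 11 of 73. The intervals of the weakest (0.338 to 9.68) and the strongest 25% (7.77 to 25.4) overlapped. GC content rose in the same order, and how far it bears on the share of these GC-rich letters was not tested. Its arm copies numbered 501, of which 24 lay at a summit of the set (4.79%). With a window of 150 bp on each side, 4 of the 430 calls outside promoters held it (0.930%), beside 25 of the regions (8.65%).

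The genes with GCGCCAGC at the summit included many already named. Among them were eelo-2, pcn-1, ddp-1, smu-1, vps-4, hrpu-2 and gsa-1, and also the importin gene imb-2, the nucleoporin gene npp-20, the chaperone gene pfd-3 and cul-3, a cullin gene of ubiquitin ligases. ACGCGC was in 14 of these 23 regions (60.9%), and in 59 of all 289 (20.4%, interval 15.9 to 25.5), beside 13.8% in the centre and 7.21% of arm calls outside promoters. ACGCGC shares bases with GCGCCAGC where AC comes before the latter, as at Y94H6A.3, so the 14 regions do not all hold 2 separate sequences. Of the 45 regions with CTGCGTC, 2 also held GCGCCAGC (4.44%, interval 0.543 to 15.1), 1 of them at eelo-2, and that interval holds the 7.96% of all regions. CTGCGTC or GAGAGA or GCGCCAGC was present in 114 regions (39.4%), so the other 175 held none of the 3.

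GCGCAC, also added after the ranking, was in 51 regions (17.6%), beside 14.7% in the centre, 14.6% at shared arm promoters and 2.37% of windows upstream of all arm coding genes. Its share was 31.5% in the strongest 25% and 4.17% in the next 25%, without a steady order. Some letters common in promoters were scarce at the summits. TTTCAG, which resembles the end of a nematode intron, was in 7.61% of the regions and in 0 of the 73 strongest. It was in 26.5% of flanks and in 18.4% of windows upstream of all arm coding genes. The GATA-type letters TGATAA were in 3.11% against 6.23% of flanks and 11.1% of windows upstream of all arm coding genes, and TATAAA in 3.46% against 9.52% and 12.4%. Centre regions were alike, with 6.44% for TTTCAG, 3.45% for TGATAA and 5.06% for TATAAA. Within 150 bp of the summit TTTCAG was in 40.5% of the regions, beside 44.3% of windows of that length upstream of all arm coding genes. TGATAA was in 14.9% beside 29.2% and TATAAA in 24.2% beside 37.7%. These AT-rich letters are fewer wherever GC content is high, and that part was not tested. CACGTG, the E-box, was in 5.19%, against 2.77% of flanks, and the CREB-type letters TGACGTCA were in 1.04%.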

How the data were processed

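ROW-1::GFP ChIP-seq of 2 biological replicates was deposited as peak lists in narrowPeak format: 1 call list per replicate (28339 and 25405 calls) and a pooled list, each holding peaks and background as input for a reproducibility analysis, and an optimal list of 1574 peaks, per the deposited file listing. The lists on ce11 were used and those on ce10 were not. Not given in the sources used here: aligner, peak caller, reproducibility threshold, signal scale. Each call has a signal that is the authors' value, used to choose, rank and describe calls within a list. The deposited −log10 q-value was at its maximum of 3.02 in 272 of the 289 regions and ranked nothing. Depth per sample is unknown.

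Gene positions came from Ensembl release 115, and sequence was read from the RefSeq assembly WBcel235, the same assembly as ce11. Replicate and optimal calls were matched by an overlap of 1 bp, taking the strongest. GC content and short sequences (both strands) were counted within 50 bp of the summit, in flanks from 250 to 350 bp away, and in windows at the median position of the regions (−173 bp) at every arm coding gene, once per gene. The pair of GCGCCAGC and TTGNCGC was counted within 100 bp of the summit. There is 1 group, so no comparison between groups and no test was made; shares carry exact Clopper-Pearson 95% intervals. The members, gene lists and 11 of the short sequences were chosen with earlier results of these data known; GCGCCAGC and ACGCGC and GCGCAC, with TTGNCGC, were added after the summits had been ranked or seen. Genes named are the 20 strongest regions, the strongest of each arm, up to 3 per gene list, those beside the threshold and the 6 genes with several regions of highest summed signal; others were chosen after their values were seen. The counting was tested on simulated positions. Python 3.11.15, pandas 2.3.3 and scipy 1.17.1 were used.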

Additional observations from a re-analysis of the deposited data

How the results depend on the processing

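The number of regions was 289 and fell to 115 with a signal minimum of 100. With that minimum, 100% overlapped the optimal list, 99.1% were among the strongest calls of both replicates, 91.3% lay upstream, GC content was 50.6%, and CTGCGTC and GAGAGA were in 14.8% and 23.5%. Choosing by the optimal list at any signal gave 98.6%, 87.0%, 47.4%, 11.2% and 21.9% for the last 5 of these. A promoter of 250 bp before and 100 bp after the 5′ end gave 90.8% upstream, GC content of 46.9%, CTGCGTC in 11.6% and GAGAGA in 23.7%. One of 1000 bp before and 500 bp after gave 55.4% that overlapped the optimal list, 69.5% among the strongest calls of both replicates, 84.0% upstream and GAGAGA in 33.5%. With wider arms, each 1/3 of the chromosome, GC content was 47.6% and CTGCGTC was in 13.4%. Without other gene types in reach, 59.0% overlapped the optimal list, GC content was 47.7% and CTGCGTC was in 16.9%. By peak overlap, 57.7% overlapped the optimal list, 84.9% lay upstream, GC content was 47.5%, and CTGCGTC and GAGAGA were in 14.5% and 30.9%. GC content was 50.2% within 25 bp and 40.7% within 150 bp.

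Without replicate 1 or without replicate 2, with the strongest 2780 calls of the other, the share that overlapped the optimal list ran from 62.0% to 64.1%, that among the strongest calls of both from 76.0% to 80.4%, that upstream from 88.1% to 89.0%, GC content from 47.4% to 47.6%, CTGCGTC from 11.3% to 12.2% and GAGAGA from 22.6% to 26.3%. The shares of CTGCGTC and GAGAGA under other choices were added after the data were seen. No paired analysis was possible because there is 1 group. Peak lists hold no counts, so what depth limits cannot be given, and no control library separates ROW-1 from signal of any tagged protein.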
